A study of Mus musculus with 2 samples.

Results

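The mesenchymal miRNAs miR-199a, miR-199b and miR-214 were examined in small RNA libraries from the muscle wall of the jejunum of mice with and without *Dnmt1* in smooth muscle. Every mature entry carrying one of these names, in all copies and arms, was taken, which gave 5 of the 1080 mature entries and of the 1147 entries in all. These were miR-199b-3p, miR-199a-5p (mmu-miR-199a-5p in full), miR-199b-5p, miR-214-3p (mmu-miR-214-3p) and miR-214-5p. There was no entry named mmu-miR-199a-3p, and miR-199b-3p, whose sequence is the same, was taken to hold the 3p reads of every miR-199 hairpin.

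Both groups were on a C57BL/6 background, were 15 days old and carried the *Myh11*-driven *Cre*-eGFP transgene. It acts in smooth muscle cells and is meant to leave *Dnmt1* intact in the other cells of the wall, which was not measured here. In *Dnmt1*-KO mice both floxed *Dnmt1* alleles were deleted in smooth muscle cells, and *Dnmt1*-WT mice carried the transgene with undeleted *Dnmt1*. The labels name Dnmt1lox/lox for both samples, which is at odds with undeleted *Dnmt1* in WT mice that carry the transgene. One description in the labels gives the WT library the knockout genotype, and the title and genotype, which give WT, were followed. As *Dnmt1* itself is not read in small RNA, the deletion could not be seen in these data. There was 1 library per genotype. The methods name 2 males and 2 females per genotype without saying whether their RNA was pooled, so the spread between animals is unknown and no p-value is given.

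A miRNA is cut from a hairpin precursor, which can yield a product from its 5′ arm (5p) and from its 3′ arm (3p). Bases 2 to 8 of the product, the seed, pair with target mRNAs. miR-199a-2 and miR-214 lie in *Dnm3os*, a noncoding RNA transcribed from the strand opposite the dynamin gene *Dnm3*. The locus is known for its activity in mesenchymal cells, among them fibroblasts, and for induction by the mesenchymal factor Twist1, and miR-199a-5p and miR-214-3p have been studied in tissue fibrosis. Known targets include *Cav1* for miR-199a-5p, *Mtor* and *Met* for miR-199a-3p, and *Ezh2* for miR-214-3p.

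The mature sequences show which products share a seed and which reads can be told apart. They are written 5′ to 3′ from RefSeq (GRCm38.p6), with the seed in capitals:
miR-199a-3p: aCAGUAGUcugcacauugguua
miR-199b-3p: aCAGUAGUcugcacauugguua
miR-199a-5p: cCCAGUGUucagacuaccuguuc
miR-214-3p: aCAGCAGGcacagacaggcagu
miR-214-5p: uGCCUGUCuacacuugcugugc
miR-761: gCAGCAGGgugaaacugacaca

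The 3p products of miR-199a and miR-199b were identical, so a 3p read cannot be traced to its hairpin. A 5p read can be assigned to miR-199a or miR-199b, but not to *Mir199a-1* or *Mir199a-2*, whose miR-199a-5p products are identical. Over the 23 bases of miR-199a-5p, the *Mir199b* hairpin matched at 22, all 7 bases of the seed included. It differed by the substitution C10U, counted from 1 at the 5′ end of miR-199a-5p. The seeds of miR-199a-3p and miR-214-3p were identical at 5 of 7 bases, and the whole products at 8 of 22. Apart from the identical miR-199a-3p and miR-199b-3p, the only other RefSeq mouse miRNA with a seed of a product shown was miR-761, which shares that of miR-214-3p. It had no entry among the 1147.

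The reads come from 4 hairpins, shown with the mature products held by RefSeq in capitals so that the arms and the loop can be seen:
Mir199a-2: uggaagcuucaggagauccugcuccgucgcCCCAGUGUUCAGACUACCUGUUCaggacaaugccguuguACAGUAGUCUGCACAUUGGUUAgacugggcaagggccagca
Mir214: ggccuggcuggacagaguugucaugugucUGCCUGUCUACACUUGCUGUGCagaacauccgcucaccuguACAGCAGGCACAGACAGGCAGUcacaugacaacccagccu
Mir199a-1: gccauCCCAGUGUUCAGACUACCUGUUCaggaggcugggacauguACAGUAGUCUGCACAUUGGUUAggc
Mir199b: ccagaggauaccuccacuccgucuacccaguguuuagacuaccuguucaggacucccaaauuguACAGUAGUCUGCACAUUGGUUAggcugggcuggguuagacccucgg

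On GRCm38, *Mir199a-2* lies at chr1:162217814-162217923 and *Mir214* at chr1:162223368-162223477, both on the plus strand, in exonic sequence of *Dnm3os* and opposite an intron of *Dnm3*. The other copies lie opposite introns of dynamin genes as well. *Mir199a-1* is at chr9:21496495-21496564 on the minus strand, opposite an intron of *Dnm2*, and *Mir199b* at chr2:32318460-32318569 on the plus strand, opposite an intron of *Dnm1*. *Mir199a-2* begins 191 bases after the first base of *Dnm3os* (chr1:162217623-162225550, 7928 bases), and 5444 bases separate it from *Mir214*.

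**Figure D1:**
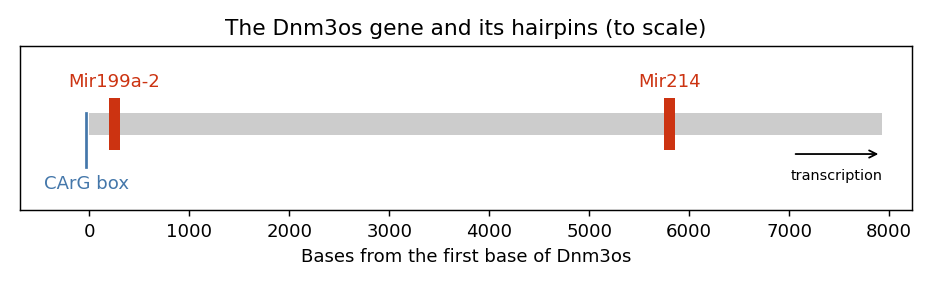
The Dnm3os gene drawn to scale, with the distance from its first base in bases on the horizontal axis, its 2 miRNA hairpins in red and the CArG box of its promoter as a blue line. Mir199a-2 stands near the start of the gene and Mir214 5444 bases further on.

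Since *Myh11*-expressing smooth muscle cells were the target of the deletion, the *Dnm3os* promoter was searched for the CArG box, the site bound by serum response factor in smooth muscle promoters, and for the E-box. It is shown from 250 bases before to 50 bases after the RefSeq start (GRCm38.p6, chr1:162217373-162217672, plus strand), with the CArG box in capitals:
Dnm3os: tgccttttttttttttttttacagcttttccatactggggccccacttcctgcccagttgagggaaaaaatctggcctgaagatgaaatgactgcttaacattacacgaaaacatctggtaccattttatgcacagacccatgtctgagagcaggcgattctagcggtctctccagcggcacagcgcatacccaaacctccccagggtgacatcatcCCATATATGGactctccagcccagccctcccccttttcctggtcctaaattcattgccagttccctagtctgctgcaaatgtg

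The window held 1 CArG box, CCATATATGG, whose first base was 33 bases before the start. A CArG box was present on either strand in 1.63% of the 32851 promoter windows of the same length. E-boxes, the motif CANNTG bound by Twist1 and related factors, were found at 3 places, beginning 196 and 138 bases before and 42 bases after the start, none overlapping the CArG box. At least 1 E-box was present in 72.3% of all windows, the median was 1 per window, and 93.5% of windows held no more than 3. The window held 5 CG dinucleotides, the substrate of DNMT1, against a median of 7 over all windows. These matches describe the sequence only. Neither binding nor methylation was measured in these libraries.

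Deposited values are read counts times a factor close to 1 for each library, with sums of 5741906 (WT) and 4754677 (KO). The totals are unequal and miR-143-3p alone took 30.9% and 25.9% of them, so ratios were also computed with equal totals, with equal totals without miR-143-3p, and with the median of the abundant entries centred. These multiplied every KO/WT ratio by 1.21, 1.13 and 1.02. Intervals in parentheses after a KO/WT ratio are 95% exact binomial intervals, and those of a change relative to other entries or of an arm difference are 95% normal intervals on the log scale. They cover counting error only and carry no information on animals. Each read is treated as independent, but without molecular identifiers 2 reads can stem from the same molecule. The intervals can therefore be too narrow even for counting error.

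The 3p product shared by the miR-199 hairpins was the most abundant member. miR-199b-3p was at 19960.5 in *Dnmt1*-WT and 22488.2 in *Dnmt1*-KO, a KO/WT ratio of 1.13 (1.11 to 1.15). It made up 0.348% of the WT reads (Wilson 95% interval 0.343 to 0.352%) and 0.473% of the KO reads (0.467 to 0.479%). It stood 36th among the mature entries in both libraries. With equal totals its ratio was 1.36 (1.33 to 1.39). Its level was therefore higher in *Dnmt1*-KO by more than counting error, and only slightly so on the deposited scale.

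The 5p products of miR-199 were fewer, and on the deposited scale only that of miR-199a was higher in *Dnmt1*-KO by more than counting error. miR-199a-5p, from *Mir199a-1* and *Mir199a-2*, went from 3154.4 to 3719.5, a ratio of 1.18 (1.12 to 1.24). miR-199b-5p, from *Mir199b*, went from 503.9 to 537.5, a ratio of 1.07 (0.944 to 1.21), an interval that includes 1. With equal totals its ratio was 1.29 (1.14 to 1.46), above 1 by more than counting error, as its share was 0.00878% of the WT reads (Wilson 0.00803 to 0.00957%) and 0.0113% of the KO reads (0.0104 to 0.0123%). The miR-199b share of the 5p reads was 13.8% in WT (Wilson 12.7 to 14.9%) and 12.6% in KO (11.7 to 13.7%), and these intervals overlap. The 5p reads thus came mostly from the miR-199a hairpins in both libraries, and a different use of the *Mir199b* copy was not detectable at this depth.

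miR-214 gave a different picture for each of its arms. mmu-miR-214-3p was at 896.5 in *Dnmt1*-WT and 2488.9 in *Dnmt1*-KO, a ratio of 2.78 (2.57 to 3.0). Its share was 0.0156% of the WT reads (Wilson 0.0146 to 0.0167%) and 0.0523% of the KO reads (0.0503 to 0.0544%), and its place among mature entries went from 141 to 86. miR-214-5p was at 116.3 and 126.6, a ratio of 1.09 (0.840 to 1.41), an interval that includes 1, and of 1.31 (1.01 to 1.71) with equal totals. The 3p product was thus clearly higher in the KO library, while the value of the 5p product rested on few reads and its interval lay below that of the 3p product.

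**Figure D2:**
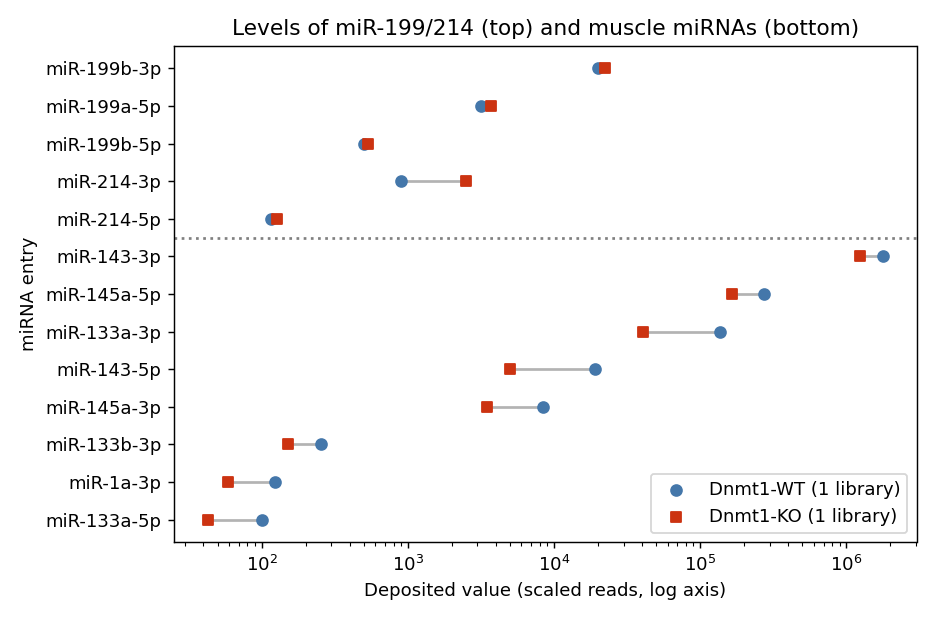
Deposited values (scaled reads, log axis) of each miR-199 and miR-214 entry above the dotted line and of each muscle entry with a mean of at least 10 below it, 1 library per genotype, with no error bars because there are no replicates. The KO square lies to the right of the WT circle for all 5 members, furthest for miR-214-3p, and to its left for all 8 muscle entries.

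The KO value exceeded the WT value 2-fold or more for 1 of the 5 members, miR-214-3p, and the reverse held for 0. Among the 313 mature entries with a mean of both libraries of at least 100, which includes every member, 6.39% were at least 2-fold higher in KO and 8.31% at least 2-fold lower. Both counts of members were the same under the other scalings, where the higher calls made up 13.1%, 9.27% and 7.03% of the 313 and the lower calls 4.15%, 4.47% and 7.99%, in the order given above. All 5 members had a ratio above 1, in contrast to 47.9% of the 313, but products of a shared precursor are not independent of each other. By ratio, miR-214-3p was the 12th highest of the 313, and the other members lay between the 109th and the 139th. All members except miR-214-3p therefore lay above the median ratio of the 313, which was 0.98 on the deposited scale, but far from the highest ratios.

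Summed over the members, the value went from 24632 to 29361, a ratio of 1.19 (1.17 to 1.21). The miR-199 entries gave most of this sum, from 23619 to 26745 (ratio 1.13, 1.11 to 1.15), and the miR-214 entries went from 1013 to 2616 (ratio 2.58, 2.40 to 2.78). Each of the 5 members stayed above 1 under every scaling, with equal totals between 1.29 for miR-199b-5p and 3.35 for miR-214-3p. The share of the 313 entries above 1 was 65.2% with equal totals, 60.7% with equal totals without miR-143-3p and 50.5% with the centred median.

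**Figure D3:**
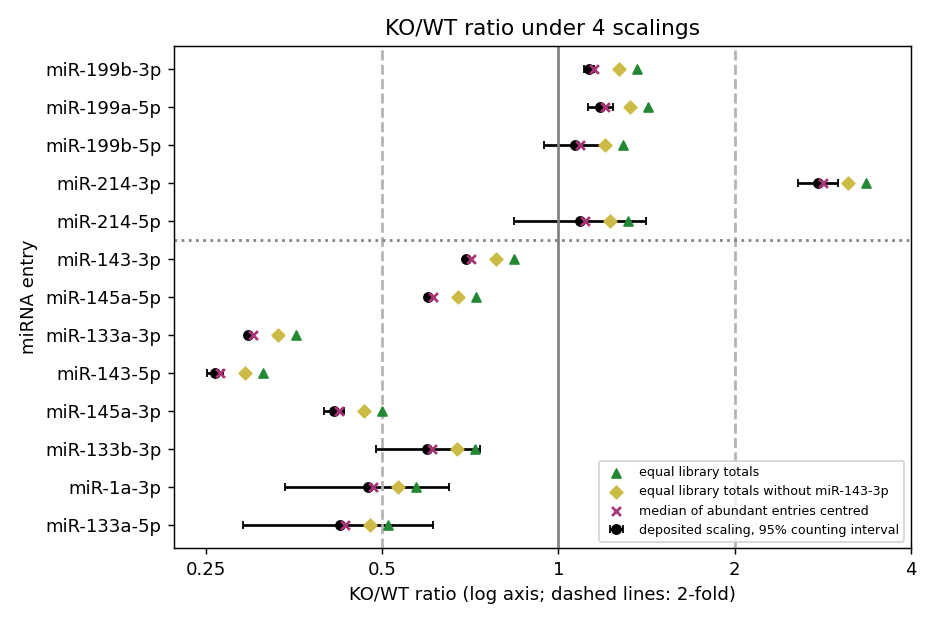
KO/WT ratio (log axis) of each member above the dotted line and each muscle entry with a mean of at least 10 below it, black points with 95% counting intervals on the deposited scale and coloured symbols for the other 3 scalings, with dashed lines at 2-fold. miR-214-3p lies beyond 2-fold under all 4 scalings, the other members between 1.07 and 1.42, and all 8 muscle entries below 1.

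Members that share the *Dnm3os* transcript did not move by the same amount. Relative to miR-199a-5p, miR-214-3p was 2.35-fold higher in KO than in WT (2.15 to 2.58, counting error). miR-199a-5p also comes from *Mir199a-1* on another chromosome. There were 3.52 reads of miR-199a-5p for each read of miR-214-3p in *Dnmt1*-WT and 1.49 in *Dnmt1*-KO. For miR-214-5p, the corresponding change relative to miR-199a-5p was 0.923 (0.715 to 1.19). These ratios within a library do not depend on the scaling.

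The next question was how the mesenchymal signal compared with that of muscle. The muscle list held all mature entries of miR-143, miR-145a, miR-133a, miR-133b and miR-1a. It left out miR-145b, which was at 30.6 in WT and higher in KO, at 50.4 (ratio 1.65). miR-143 and miR-145a are the smooth muscle miRNAs driven by serum response factor, and miR-133 and miR-1a are best known from striated muscle. Of its 10 entries, 8 had a mean of at least 10, and all 8 were lower in *Dnmt1*-KO, 5 of them at least 2-fold. Of all 534 mature entries with such a mean, 47.2% were lower, 8.99% at least 2-fold, and 52.2% were higher. With equal totals all 8 were still lower, but 3 of them at least 2-fold, in contrast to 4.31% of the 534, and with equal totals without miR-143-3p 4 were (5.06% of the 534). The defining miRNA of the tissue, miR-143-3p, was at 1777100 in WT and 1232984 in KO (ratio 0.694), and miR-133a-3p at 137241 and 40502 (ratio 0.295). Among the arms, miR-143-5p had the lowest ratio of the list, 0.259 (0.251 to 0.267), and miR-1a-3p went from 124.4 to 58.8. miR-145a-5p, cut from the transcript that also holds miR-143, went from 275275 to 164499 (ratio 0.598) and miR-145a-3p from 8447 to 3488 (0.413). The low entries miR-133b-3p (255.1 and 152.2) and miR-133a-5p (101.3 and 42.9) were lower as well. The remaining entries, miR-1a-1-5p and miR-133b-5p, were at no more than 6 in either library. The list was chosen with the lower values of these miRNAs in these libraries already known, so its direction is not independent evidence.

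The sums of the members and of the muscle list thus lay on opposite sides of 1. For each 1000 muscle reads there were 11.1 member reads in *Dnmt1*-WT and 20.3 in *Dnmt1*-KO, a 1.83-fold change (1.80 to 1.86, counting error). Against miR-143 the change was 1.73-fold (1.70 to 1.76), and against miR-133a it was 4.04-fold (3.96 to 4.12). The miR-199 entries alone gave 1.74-fold against all muscle reads (1.71 to 1.77), and miR-214-3p gave 4.26-fold (3.94 to 4.59). How much of the change in the miR-199 balance lay in each term depended on the scaling. The muscle sum had a ratio of 0.652 and the miR-199 sum one of 1.13 on the deposited scale, and 0.788 and 1.37 with equal totals. In RNA from whole tissue, fewer cells of a type and less RNA per cell cannot be told apart.

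Arm balance was compared within each library, where scaling has no part. For miR-199, the 3p product made up 84.5% of the reads of both arms in *Dnmt1*-WT (Wilson 84.0 to 85.0%) and 84.1% in *Dnmt1*-KO (83.6 to 84.5%), with 5.46 and 5.28 reads of 3p for each read of 5p. For miR-214, the 3p share was 88.5% in WT (86.4 to 90.3%) and 95.2% in KO (94.3 to 95.9%), with 7.71 and 19.7 reads of 3p for each read of 5p. The 3p arm dominated both hairpin families in both genotypes, and the balance of miR-214 moved further towards it in KO.

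On the log2 scale, the KO/WT ratio of the 3p arm minus that of the 5p arm was 1.35 for miR-214 (0.97 to 1.73) and -0.05 for miR-199 (-0.12 to 0.02), the latter interval including 0. Among 60 other hairpins with a mean of at least 100 in both arms, the median size of this difference was 0.49, and 11 had arms at least 1 log2 unit apart. The difference was larger in size than that of miR-214 in 6 of the 60, namely miR-125a, miR-142a, miR-143, miR-376b, miR-490 and miR-671, and smaller than that of miR-199 in 2. miR-143, whose 3p arm also gained on its 5p arm, was the only hairpin beyond miR-214 among the 12 with a mean of at least 1000 in both arms. miR-214 itself is not in that class, as its 5p arm had a mean of 121, so the 12 are not a like reference for it. In miR-125a, miR-142a, miR-376b and miR-671 the lower arm was also low, with a mean between 100 and 221. In miR-490 and miR-143 it was at 801 and 12116. An arm shift of the size seen for miR-214 was therefore uncommon among the 60 but not particular to it.

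**Figure D4:**
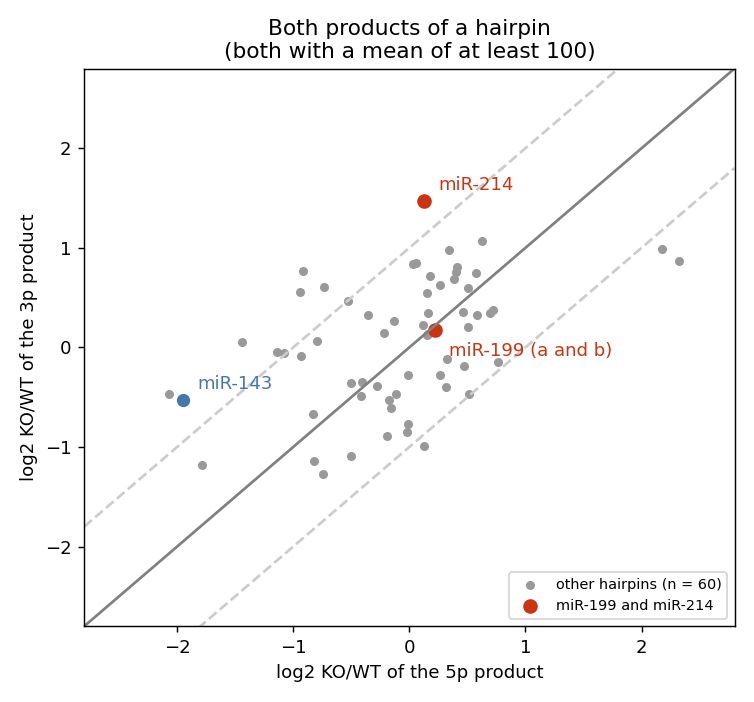
log2 KO/WT ratio of the 5p product (horizontal) and of the 3p product (vertical) of each hairpin in which each product had a mean of at least 100, with 60 other hairpins in grey, miR-143 in blue, the diagonal for equal change and dashed lines 1 log2 unit from it. miR-199 lies on the diagonal, while miR-214 lies 1.35 above it.

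Other miRNAs abundant in mesenchymal cells went in both directions. Of the 10 on this list, 4 were higher and 6 lower in *Dnmt1*-KO, where 52.2% of the 534 entries were higher, with a median log2((KO + 1)/(WT + 1)) of -0.21, in contrast to 0.17 for the 5 members and 0.06 for all 534 mature entries with a mean of at least 10. Higher were miR-10b-5p, cut from the Hoxd cluster (ratio 2.84), miR-21a-5p, an injury-induced miRNA (2.01), miR-99a-5p (1.56) and miR-140-3p (1.38). Lower were miR-22-3p (0.837), miR-100-5p (0.804), miR-218-5p (0.898), miR-152-3p (0.721), miR-125b-5p (0.513) and miR-140-5p (0.695). The median turned to 0.07 with equal totals. The sum of the list went from 207528 to 253571, a ratio of 1.22 and of 1.48 with equal totals, close to the 1.19 and 1.44 of the members, while its entries lay on both sides of 1. miR-10b-5p, at 44849 and 127180, gained more than the whole list did.

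miRNAs of other cell types were compared in the same libraries, again beside the 52.2% of all 534 entries that were higher. The leukocyte list summed to 6085 in WT and 10150 in KO, and 7 of its 8 entries with a mean of at least 10 were higher, with miR-142a-5p at a ratio of 5.01 and miR-342-3p at 1.20. The red cell list went from 12745 to 47217, and miR-486a-5p alone gave 12592 and 46756 of these sums. All 4 of its entries were higher, the defining miR-451a at 141 and 421. The endothelial list, both arms of miR-126a, went from 10080 to 14282 (ratios 1.27 for 3p and 1.62 for 5p).

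The epithelial list went from 14645 to 18346, with 9 of 13 entries higher. miR-200a-3p was at 298 and 277, while miR-192-5p had a ratio of 1.79, miR-215-5p of 0.977 and miR-194-5p of 0.958. Of the other 3p products of the miR-200 family, miR-200b-3p was at 1.41 (1.24 to 1.60), miR-200c-3p at 1.65 (1.20 to 2.28), miR-141-3p at 1.30 (0.992 to 1.68) and miR-429-3p at 0.886. The neural list went from 6008 to 6685, with 3 of 8 entries higher. Its entries miR-129-5p, miR-129-2-3p and miR-9-5p had ratios of 1.28, 1.26 and 1.09, while miR-124-3p (0.736), miR-9-3p (0.504), miR-137-5p (0.524), miR-137-3p (0.990) and miR-129-1-3p (0.971) were below 1. The medians of the epithelial and neural lists were 0.38 and -0.03, and the sign of both changed with the settings. With equal totals, 13 of 13 epithelial and 5 of 8 neural entries were above 1, as were 66.9% of the 534, and so were 8 of 8 leukocyte and 6 of 10 other mesenchymal entries. The first-named marker of every list was above 0 in both libraries. The part of these cell types in the values of miR-199 and miR-214 was not tested.

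**Figure D5:**
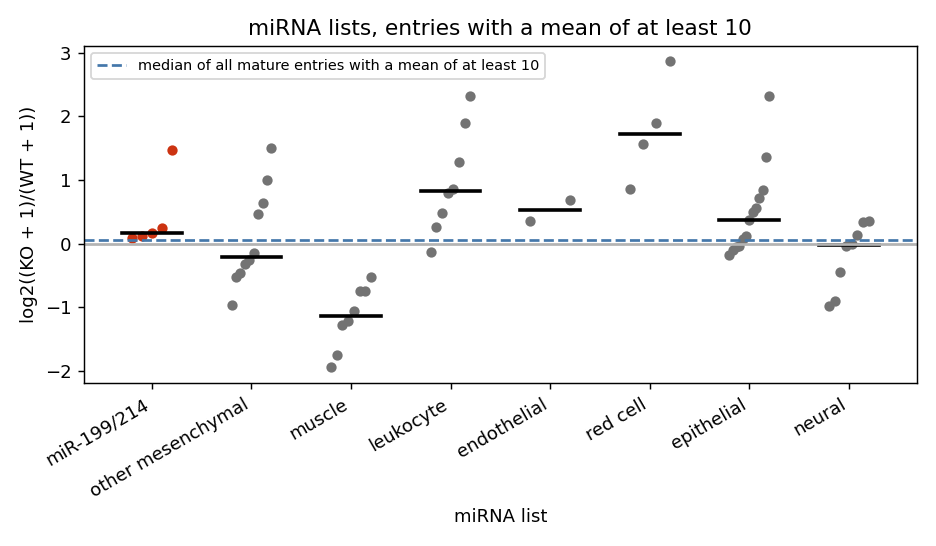
log2((KO + 1)/(WT + 1)) of each entry with a mean of at least 10 in miR-199 and miR-214 (red) and in the lists of other mesenchymal, muscle, leukocyte, endothelial, red cell, epithelial and neural miRNAs (grey), with black bars for list medians and a dashed line for the median of all mature entries with a mean of at least 10, 0.06. miR-214-3p stands apart from the other 4 members, which lie close to the dashed line.

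The miRNAs whose KO/WT ratio was nearest to that of each main member were sought among the 133 other mature entries with a mean of at least 1000. With only 2 libraries, this likeness is a closeness of a single ratio. Nearest to miR-214-3p were miR-10b-5p (2.84), miR-146b-5p (2.85) and miR-486a-5p (3.71), the last already 0.42 log2 units away. Few of the 133 thus had a ratio like that of miR-214-3p. Below this cut, miR-34a-5p (mean 991.7, ratio 2.75), miR-679-5p (2.72) and miR-451a (2.98) were nearer to it than miR-486a-5p. Nearest to miR-199a-5p were miR-26a-5p (1.16), miR-423-5p (1.20) and miR-342-3p (1.20). Nearest to miR-199b-3p were miR-151-5p (1.11), let-7j (1.10) and miR-9-5p (1.09).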

How the data were processed

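Small RNA from the jejunal muscle wall was sequenced by the authors' provider from Illumina TruSeq Small RNA libraries and annotated against GRCm38. The submitters' processing notes name Bowtie and mm10. The miRNA release, the handling of reads matching several miRNAs and the scaling are not given in the sources used here. The deposited table gives, per library, read counts times a factor with 1 decimal, worked out from the values: 86.9% of the 229 WT values and 89.1% of the 248 KO values from 20 to 300 were, within 0.05, whole multiples of a step (1.003 and 0.997). The remainder were fractional, so no count test was run. Dividing by the steps gave 5725560 and 4767884 reads, which set the intervals. A column with the authors' fold change was not used.

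Ratios use deposited values with no pseudocount. Lists use log2((KO + 1)/(WT + 1)) for entries with a mean of at least 10. Intervals of a ratio between entries or arms are normal approximations on the log scale. Step search and intervals were tested on simulated data. The members, lists and comparisons were chosen with earlier results of these data known. Named were all members, the muscle entries, the 3 nearest ratios, neighbours in level, list entries with a mean of at least 1000 and each list's first marker. Other list entries named were chosen after their values were seen. The miR-199b-5p sequence is not printed. Overlaps with genes come from GENCODE M21 (GRCm38). Python 3.11.15, NumPy 2.4.6, pandas 2.3.3, SciPy 1.17.1 and Matplotlib 3.10.9 were used.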

Additional observations from a re-analysis of the deposited data

How the results depend on the processing

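The summed ratio of the members, 1.19, became 1.44 with equal totals, 1.34 with equal totals without miR-143-3p, 1.22 with the median of abundant entries centred and 1.52 without the entries named miR-199b. In alternatives added after seeing the data, it was 1.13 without miR-214-3p and 1.47 without miR-199b-3p. Relative to muscle, 1.83 became 2.41 without miR-143, 4.04 with only miR-133a and 1.73 with only miR-143, and, as added alternatives, 1.74 without miR-214-3p and 2.26 without miR-199b-3p. The size of this balance thus depends on which muscle miRNA is the denominator. Its direction held in each of these alternatives, but they could not have turned it. All 5 members were above 1, and all 8 muscle entries with a mean of at least 10 were below 1. The muscle list was also chosen with these lower values known. The counts of 1 member at least 2-fold higher and 0 lower were the same under all 3 other scalings and with pseudocounts of 1 and 10, and the 15 ratios of the members under other scalings ran from 1.09 to 3.35. The arm difference of miR-214 does not depend on scaling. The median of the other mesenchymal list changed sign with equal totals (0.066), that of the epithelial list at a mean of at least 100 (-0.034), and that of the neural list with equal totals (0.24), with equal totals without miR-143-3p (0.14) and with the centred median (8.73e-05). At this depth the ratios of miR-199b-5p and miR-214-5p could not be placed on a side of 1 on the deposited scale or with the centred median. With equal totals both intervals lay above 1. With equal totals without miR-143-3p, the interval of miR-199b-5p lay above 1 (1.06 to 1.36) and that of miR-214-5p included 1 (0.945 to 1.59). No paired analysis was possible because there was 1 library per genotype.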

Other observations

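The order of the members by level was the same in both libraries: miR-199b-3p, miR-199a-5p, miR-214-3p, miR-199b-5p and miR-214-5p. In *Dnmt1*-WT, miR-199b-3p stood between miR-130a-3p (22730) and miR-143-5p (19250), and in *Dnmt1*-KO between let-7e-5p (24427) and miR-23b-3p (16143). miR-143-5p, next below it in WT, was at 4982 in KO. miR-199a-5p stood between miR-652-3p (3165) and miR-28c (3110) in WT and between miR-195a-5p (3788) and miR-140-3p (3684) in KO. miR-214-3p stood between miR-34c-5p (903.6) and miR-15a-5p (871.5) in WT and between miR-431-5p (2766) and miR-744-5p (2486) in KO. miR-199b-5p had miR-6240 (511.5) above and miR-345-3p (503.4) below it in WT, and miR-361-3p (542.5) and miR-341-3p (531.5) in KO. miR-214-5p had miR-376b-3p (117.3) and miR-135a-5p (115.8) as neighbours in WT, and miR-99b-3p (127.6) and miR-350-3p (123.7) in KO.

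Within the members, miR-199b-3p held 81.0% of the reads in WT (Wilson 80.5 to 81.5%) and 76.6% in KO (76.1 to 77.1%), and miR-214-3p 3.64% (3.41 to 3.88%) and 8.48% (8.16 to 8.80%).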
